A study of Mus musculus with 11 samples.

Results

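The genes described here make fatty acids and build them into phospholipids and triglycerides. They were taken by symbol from a list of 38 genes, of which 37 were in the deposited table of 14700 genes. Dgat1 was not analysed here. All 37 passed the filter on low counts and entered the test. The list was drawn up by function, but with earlier results of these data known, as were the other gene lists below. Shares of called genes set against all genes are therefore descriptive.

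Cells make fatty acids in the cytosol by turning citrate into acetyl-CoA, carboxylating it to malonyl-CoA and extending the chain on fatty acid synthase. Desaturases and elongases then shape the chains, acyl-CoA synthetases activate them, and acyltransferases place them on glycerol, where choline, ethanolamine or serine head groups complete a phospholipid. In the lung, alveolar type 2 cells use this pathway for surfactant, which is rich in saturated phosphatidylcholine, and its genes are well known targets of the sterol regulatory element-binding proteins (SREBPs).

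Bulk RNA was sequenced from whole lungs of C57BL/6 mice aged 8 weeks. The mice were given saline or 3 U/kg bleomycin, a DNA-damaging drug used to injure the lung, in 50 µL into the trachea at day 0, and lungs were taken at day 3. There were 6 saline and 5 bleomycin libraries, and the labels name no other genotype or treatment. The labels do not tie each library to its own animal, and p-values therefore describe the spread between libraries, which may be technical. Saline 1 and 4, and saline 2 and 3, stood apart as close pairs: their counts differed by a chi-square of 17.5 and 25.6 per degree of freedom, against 107 for the next closest saline pair. Saline 6 was closer to bleomycin 2 (61.9) than to any saline library. Whether the libraries of a pair share an animal is not stated, and every test treats the 6 saline libraries as independent.

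Total counts ranged from 13226339 to 19009284 per library. The lung label fitted its markers, since all 13 alveolar type 2 and all 8 type 1 markers had reads in every library. The type 2 markers summed to between 13315 and 46454 CPM (read counts scaled to library size, after TMM scaling) in saline and between 23745 and 34955 in bleomycin, with 2 of 13 higher after bleomycin (Sftpb and Abca3). The type 1 markers summed to 1055 to 2958 CPM in saline and 3170 to 4449 in bleomycin, and 4 of 8 rose. Of 10 lymphocyte markers 6 fell. In whole tissue, fewer cells of a type and less RNA per cell cannot be told apart.

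After bleomycin 6 of the 37 genes rose and 2 fell. The rises were in fatty acid synthase (Fasn), both acetyl-CoA carboxylases (Acaca and Acacb), ATP citrate lyase (Acly), the desaturase Scd2 and the acyltransferase Agpat3. The falls were in the acyl-CoA synthetase Acsl1 and the phospholipid-completing enzyme Cept1. Genes were called by edgeR's quasi-likelihood test with Benjamini-Hochberg adjustment over all 14478 genes tested, at an adjusted p under 0.05. Over all genes the same test called 10.3%, with 4.63% risen and 5.7% fallen, against 16.2% risen and 5.41% fallen among these 37. The median log2 fold change was 0.21 over the 37 genes and -0.04 over all genes tested. The groups did not overlap for 6 members, with bleomycin wholly higher for 5 (3.99% of all genes) and wholly lower for 1 (4.41%).

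The counts moved with the fit, and so did those of all genes. DESeq2 had 8 members up and 3 down, where it called 19.9% of all genes (8.6% up, 11.3% down). Without saline 2 and 3, 7 rose and 4 fell (all genes 19.2%, 9.22% up and 9.97% down). Without saline 1 and 4, 4 rose and 0 fell (all genes 6.04%, 1.97% up and 4.07% down), and the 4 were Fasn, Acaca, Acacb and Agpat3. Without bleomycin 1, 8 rose and 1 fell (all genes 10.5%, 4.67% up and 5.84% down). With a correction for the GC content of genes, Fasn, Acaca and Scd2 rose and 0 members fell (all genes 6.68%, 2.8% up and 3.88% down). Without bleomycin 2, 3 rose and 1 fell (all genes 3.83%, 1.82% up and 2.02% down).

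**Figure D1:**
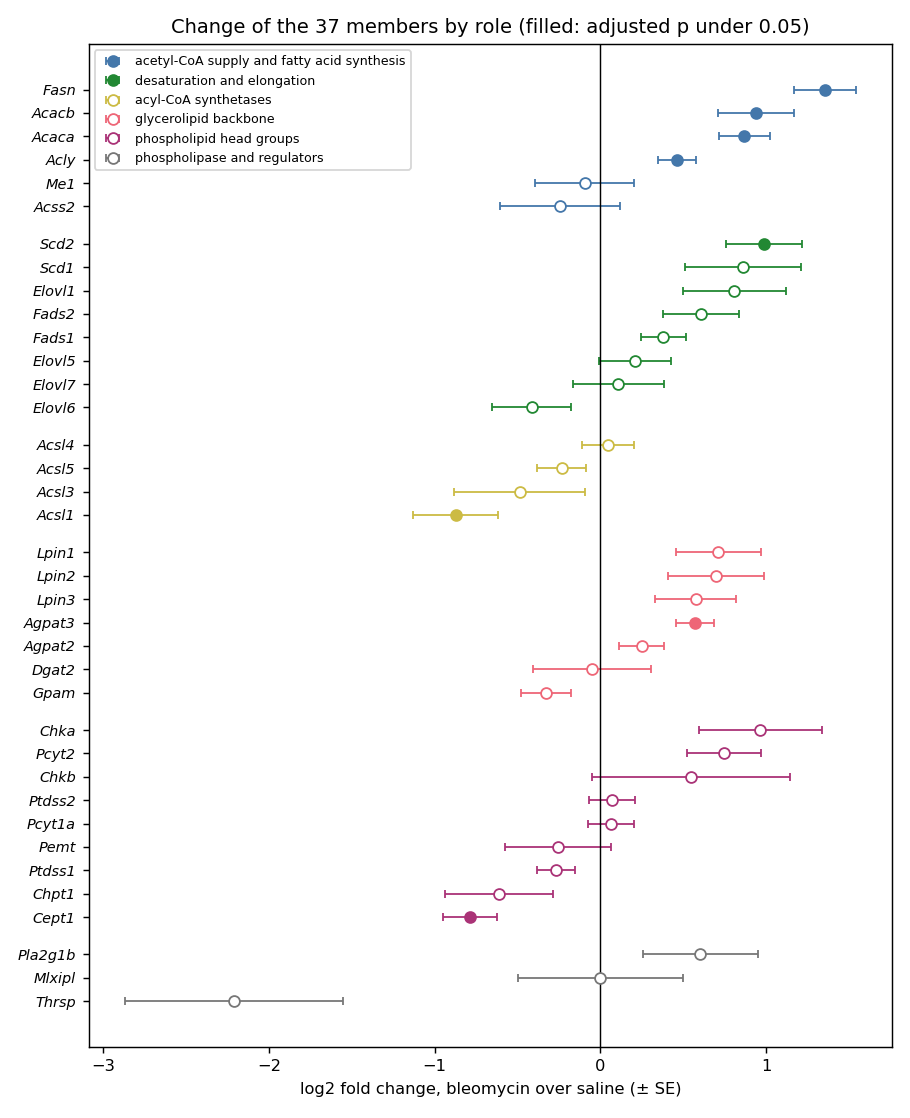
Log2 fold change of bleomycin over saline for each of the 37 genes, grouped by role, with standard errors as bars (x axis, log2 units). Filled circles mark the 8 genes past the threshold. Fasn lies farthest to the right at 1.35 and Thrsp farthest to the left at -2.21.

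By length-scaled level (FPKM, mean ± SD), Scd1 was the most abundant member in saline lungs at 142 ± 64.6 (n = 6), followed by Elovl5 at 49.4 ± 13.4 and Scd2 at 46.0 ± 14.3. The order of Elovl5 and Scd2 lies within their spread. Fasn stood at rank 19 of 37 with 4.83 ± 1.37, and was at 13.9 ± 3.61 (n = 5) after bleomycin. The lowest were Acacb at 0.50 ± 0.158, Mlxipl at 0.198 ± 0.124 and Chkb at 0.0709 ± 0.0654.

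Among the 6 genes of acetyl-CoA supply and fatty acid synthesis, 4 rose and none fell. Fasn, the multi-enzyme protein that builds the acyl chain, had a lowest, median and highest CPM of 79.7, 107 and 145 in saline. In bleomycin 1 to 5 it was at 207, 250.4, 294, 268 and 367 CPM. Every bleomycin library lay above every saline library. The log2 fold change was 1.35 (SE 0.19, a 2.56-fold rise, adjusted p = 0.00285 by edgeR), and the gene remained called in every fit that left out 1 library, with fold changes from 1.23 to 1.46 log2 units.

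Acaca, the cytosolic acetyl-CoA carboxylase that commits acetyl-CoA to synthesis, had saline values of 28.5, 35.1 and 39.8 CPM (lowest, median, highest). The bleomycin libraries had 83.8, 53.0, 55.7, 56.1 and 68.6 CPM. The groups did not overlap, and bleomycin 1 was the highest. Its log2 fold change was 0.87 (SE 0.15, adjusted p = 0.00754 by edgeR). Acacb, the carboxylase at the mitochondrial surface whose malonyl-CoA restrains fatty acid import, had 8.20, 14.1 and 17.96 CPM in saline and 23.9, 25.2, 26.9, 20.9 and 31.8 in bleomycin. The 2 groups were again apart, and its log2 fold change was 0.94 (SE 0.23, adjusted p = 0.0274 by edgeR). Without bleomycin 2, 3 or 5 in turn the adjusted p of Acacb passed 0.05, and it reached 0.157 with GC correction.

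Acly, which splits citrate into cytosolic acetyl-CoA, had 116, 122 and 146 CPM in saline and 149, 169.9, 176, 178 and 188 in bleomycin. The bleomycin libraries lay above the saline libraries in CPM, whereas the groups overlapped in FPKM. The log2 fold change was 0.46 (SE 0.11, adjusted p = 0.0284 by edgeR). The call of Acly was lost without saline 1 or 4 and without bleomycin 2, 3, 4 or 5, each left out in turn, with adjusted p up to 0.0727. Acss2, which makes acetyl-CoA from acetate, was at 48.9 ± 25.4 and 41.3 ± 11.8 CPM (mean ± SD), and Me1, a source of NADPH for synthesis, at 123 ± 59.7 and 116 ± 16.2. Neither passed the threshold, and the groups overlapped for both. For Acss2 and Me1 the sign of the fold change turned positive in limma on FPKM, and for Me1 also with total-count scaling.

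**Figure D2:**
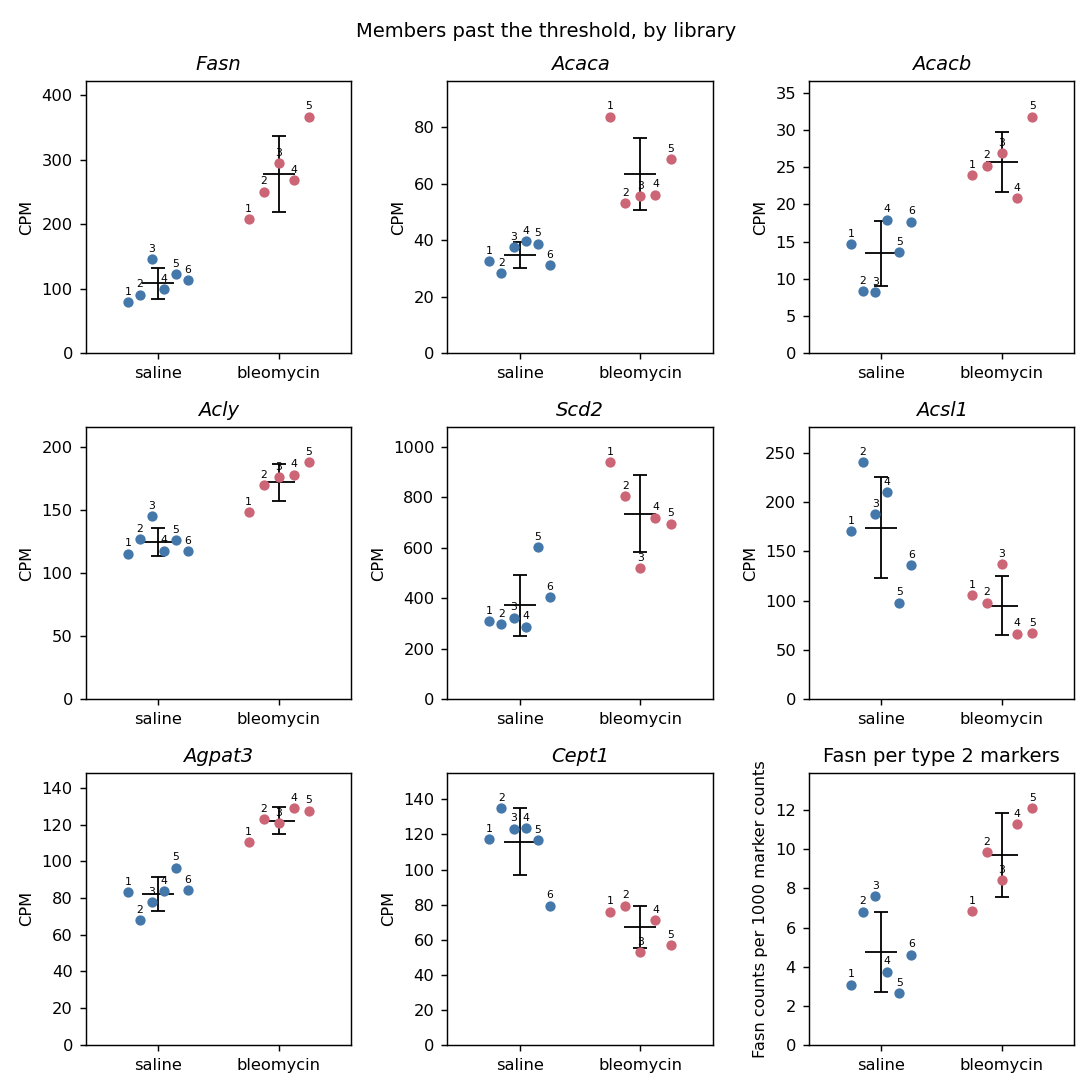
TMM-scaled CPM of the 8 genes past the threshold in each library (y axis from 0; blue, 6 saline; red, 5 bleomycin; numbers, replicate; bars, mean ± SD). The last panel gives Fasn counts per 1000 counts of the type 2 markers. Fasn, Acaca, Acacb, Acly and Agpat3 are wholly higher in bleomycin and Cept1 wholly lower, while Scd2 and Acsl1 overlap between the groups.

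Fasn was also set against the alveolar type 2 markers of the same library, a ratio that needs no scaling between libraries. Per 1000 counts of the 13 markers there were 2.64, 4.18 and 7.62 Fasn counts in saline (lowest, median, highest) and 6.83, 9.85, 8.42, 11.3 and 12.1 in bleomycin 1 to 5. Bleomycin 1 lay below saline 3 and the other 4 bleomycin libraries lay above all saline libraries. The log2 ratio was higher by 1.11 in bleomycin (exact two-sided permutation test over 462 divisions of the libraries, p = 0.0108). The ratio counts Fasn from all cells of the lung over markers of 1 cell type.

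The stretch before each annotated transcription start was read to see which binding motifs of lipogenic regulators it held. Whether an annotated start is the one used in the lung was not tested. RefSeq windows (GRCm38.p6, an older build than the GRCm39 of the counts) of 250 bases upstream matched 31 of the 38 genes, with 44 windows. These letter strings were searched on both strands: the sterol regulatory element TCACNCCAC, the CCAAT box CCAAT and the E-box CACGTG. Fasn at chr11:120824548-120824797 (minus strand) and Acacb at chr5:114165268-114165517 (plus strand) are shown because they had the largest called rises among genes with a window, with the matches in capitals.
Fasn: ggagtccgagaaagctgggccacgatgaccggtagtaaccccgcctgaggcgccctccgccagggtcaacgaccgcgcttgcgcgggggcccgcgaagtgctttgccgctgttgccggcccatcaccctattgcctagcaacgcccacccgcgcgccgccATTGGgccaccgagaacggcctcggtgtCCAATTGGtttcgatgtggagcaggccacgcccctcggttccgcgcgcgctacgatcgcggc
Acacb: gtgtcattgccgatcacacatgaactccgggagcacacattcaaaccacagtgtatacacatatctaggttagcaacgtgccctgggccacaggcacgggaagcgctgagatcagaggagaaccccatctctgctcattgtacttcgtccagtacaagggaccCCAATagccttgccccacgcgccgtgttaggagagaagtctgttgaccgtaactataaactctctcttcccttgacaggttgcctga
Fasn held 3 CCAAT matches (2 of them overlapping on opposite strands) and Acacb 1, and neither held the sterol string or the E-box. Acaca, Acly and Agpat3 held no match in the windows searched, which may not be the promoters used in the lung. The CCAAT string lay in 17 of the 44 windows and in 33.8% of all 32536 promoters (distinct sequences). The sterol string lay in 4 windows of 3 genes and in 1.045% of promoters, and the E-box in 3 windows and 6.04% of promoters. The sterol string of Pcyt1a was counted in 2 overlapping windows that hold the same site, so the count of windows overstates its share among members. A match of letters is a description of the window.

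Of the 8 desaturases and elongases 1 rose and none fell. Scd2, a stearoyl-CoA desaturase that makes monounsaturated chains, had 287, 317 and 602 CPM in saline and 938, 803, 519.9, 719 and 695 in bleomycin 1 to 5. Saline 5 lay within the bleomycin range, and the other saline libraries lay below it. The log2 fold change was 0.99 (SE 0.23, adjusted p = 0.0234 by edgeR), and the call was lost without bleomycin 2, bleomycin 4 or saline 1, with adjusted p up to 0.0587. Scd1, its more abundant relative, had 527, 769 and 1788 CPM in saline and 1179, 1296, 1905, 1404 and 2562 in bleomycin. Saline 5 was again the highest saline library, above 3 of the bleomycin libraries. Scd1 had a log2 fold change of 0.86 (SE 0.35, adjusted p = 0.125 by edgeR) and an adjusted p of 0.0411 without saline 5. Scd1 and Scd2 are related genes, and how the counting treated reads that align to both is not stated. The log2 ratio of Scd1 to Scd2 differed by -0.07 between the groups (exact permutation p = 0.864, adjusted p = 0.930 over 14 pairs).

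The front-end desaturases Fads1 and Fads2, which make polyunsaturated chains, had log2 fold changes of 0.38 (SE 0.13, adjusted p = 0.0848 by edgeR) and 0.61 (SE 0.23, adjusted p = 0.108). Fads1 passed in DESeq2 (adjusted p = 0.0273), in each limma fit, with total-count scaling and without saline 5. Elovl1, an elongase of very long saturated chains, was at 121 CPM in bleomycin 1, below all saline libraries (147 to 272), and at 279 to 525 in the other 4 bleomycin libraries. Fads2 was also lowest among bleomycin libraries in bleomycin 1, at 38.8 CPM against 68.0 to 97.5 in the others. Without bleomycin 1 both passed, with adjusted p of 0.0198 for Elovl1 and 0.0273 for Fads2 by edgeR. Elovl5, Elovl6 and Elovl7, elongases of polyunsaturated, shorter saturated and long chains, had log2 fold changes of 0.21, -0.41 and 0.11 and overlapping groups.

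Among the 4 acyl-CoA synthetases, which activate free fatty acids, 1 fell and none rose. Acsl1 had 97.9, 179 and 240.3 CPM in saline and 106, 98.0, 137, 66.4 and 67.3 in bleomycin 1 to 5. Saline 5 and 6 lay within the bleomycin range. Its log2 fold change was -0.87 (SE 0.26, adjusted p = 0.0493 by edgeR), just inside the threshold. The call was lost in 8 of 11 such fits (without bleomycin 1, 2, 4 or 5, or saline 1, 2, 3 or 4), with adjusted p up to 0.114, and under total-count scaling it was 0.0949. Acsl3, Acsl4 and Acsl5 had log2 fold changes of -0.49, 0.05 and -0.23 and were not called. Acsl1 also held the sterol string and 2 CCAAT matches in the window at chr8:46490716-46490965 (plus strand), the second of its 2 windows. It is shown because no other called gene with a window held that string.
Acsl1: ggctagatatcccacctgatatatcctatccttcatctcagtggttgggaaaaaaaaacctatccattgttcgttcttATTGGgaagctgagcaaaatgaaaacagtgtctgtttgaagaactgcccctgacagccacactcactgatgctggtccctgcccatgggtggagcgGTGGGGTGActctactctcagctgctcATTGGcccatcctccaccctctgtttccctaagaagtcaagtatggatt
The capitals mark the matches, all of them on the opposite strand.

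Of the 7 tested genes that build the glycerol backbone 1 rose. Agpat3, which adds a second acyl chain to lysophosphatidic acid, had 67.9, 83.6 and 96.6 CPM in saline and 111, 123, 121, 129 and 128 in bleomycin. The groups did not overlap, and the bleomycin libraries lay within a narrow range. The log2 fold change was 0.57 (SE 0.11, adjusted p = 0.013 by edgeR), called in all 11 fits without 1 library and at adjusted p = 0.0943 with GC correction. Its relative Agpat2 had a log2 fold change of 0.25, and the log2 ratio of Agpat2 to Agpat3 differed by -0.31 between the groups (exact permutation p = 0.0325, adjusted p = 0.152 over the pairs).

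The phosphatidate phosphatases Lpin1 and Lpin2 and the choline kinase Chka stood highest in bleomycin 1. Lpin1 had 73.7 CPM there and 28.7 to 34.3 in the other bleomycin libraries, against 18.6, 23.8 and 34.7 in saline. Lpin2 had 600.4 CPM there and 196 to 281 in the others, against 133, 183 and 249 in saline. Chka had 375 CPM there and 89.9 to 134 in the others, against 51.2, 77.3 and 144 in saline. Their log2 fold changes were 0.71, 0.70 and 0.96, and none of the 3 was called (adjusted p = 0.0924, 0.132 and 0.11 by edgeR). Bleomycin 1 was more than 1.5 times the next bleomycin library for 5 members, these 3 and Dgat2, a triglyceride-forming acyltransferase, and Mlxipl, a carbohydrate-responsive transcription factor. Lpin3, the third phosphatase, had a log2 fold change of 0.58 and an adjusted p of 0.0179 without saline 6, its highest saline library at 16.9 CPM. Gpam, which adds the first acyl chain, and Dgat2 had log2 fold changes of -0.33 and -0.05.

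**Figure D3:**
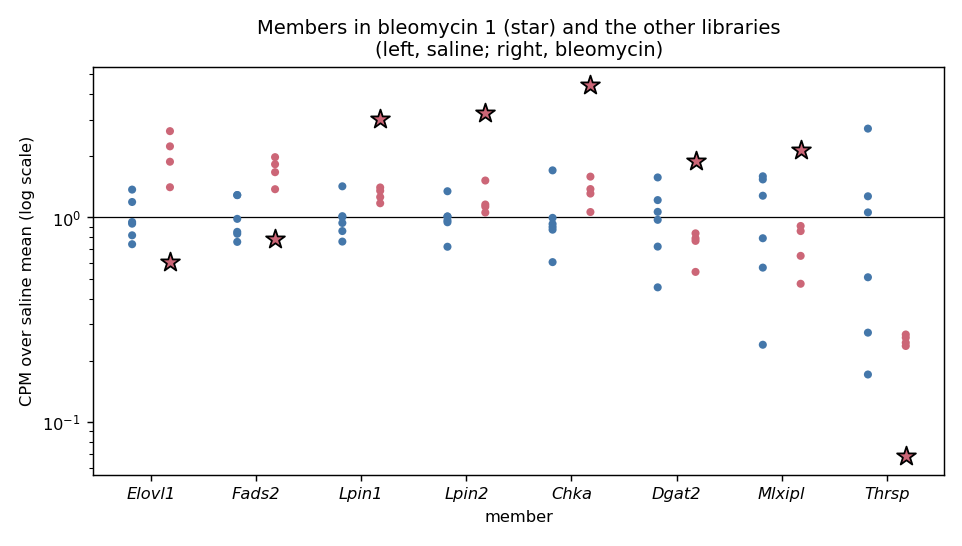
CPM relative to the saline mean (y axis, log scale) for 8 members, with saline on the left of each gene and bleomycin on the right, and bleomycin 1 as a star. Bleomycin 1 is the highest library for Lpin1, Lpin2, Chka, Dgat2 and Mlxipl and the lowest for Elovl1 and Thrsp.

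Among the 9 head group genes 1 fell and none rose. Cept1, which joins choline or ethanolamine to diacylglycerol, had 79.4, 120.4 and 135 CPM in saline and 76.0, 79.4, 52.7, 71.1 and 57.0 in bleomycin 1 to 5. The highest bleomycin value and the lowest saline value, in saline 6, were equal as rounded here, and the groups overlapped in FPKM. The log2 fold change was -0.79 (SE 0.16, adjusted p = 0.0151 by edgeR), called in all 11 fits without 1 library, but at 0.0878 with GC correction and 0.0503 without saline 1 and 4. In a GRCm38 annotation 24.9% of the exon bases of Cept1 lie on the opposite strand to exons of Dennd2d and Dram2, and the strand setting of the counting is not given in the sources used here. Dennd2d had a log2 fold change of 0.01 and Dram2 of -0.55 (adjusted p = 0.0796 by edgeR).

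Pcyt1a, the rate-limiting enzyme of phosphatidylcholine synthesis, had 60.2, 65.1 and 94.5 CPM in saline and 63.8, 75.5, 78.3, 76.8 and 79.99 in bleomycin. All 5 bleomycin values lay within the saline range, and the log2 fold change was 0.07 (SE 0.14, adjusted p = 0.779 by edgeR). Pcyt2, its counterpart for phosphatidylethanolamine, lay just outside the threshold at 27.0, 42.5 and 67.4 CPM in saline and 83.0, 66.7, 90.7, 56.9 and 68.7 in bleomycin (log2 fold change 0.75, SE 0.22, adjusted p = 0.0508 by edgeR). Pcyt2 passed in DESeq2 (adjusted p = 0.0133), with median-ratio scaling, in each limma fit, without saline 6 and without saline 2 and 3. Chpt1, a cholinephosphotransferase, had a log2 fold change of -0.61, and Pemt, which methylates phosphatidylethanolamine, of -0.25. Chkb was counted at 1 to 26 reads per library, and 50.7% of its exon bases are shared with Gm44502 on the same strand, so its log2 fold change of 0.55 (SE 0.60) is uncertain. Ptdss1 and Ptdss2, which exchange head groups for serine, had log2 fold changes of -0.27 and 0.07.

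The regulators and the phospholipase were not called. Thrsp, a nuclear protein of lipogenic tissues, was at 1.89, 8.68 and 30.1 CPM in saline and 0.754, 2.61, 2.71, 2.86 and 2.97 in bleomycin. Saline 2 lay within the bleomycin range, and saline 3 just above it. The log2 fold change was -2.21 (SE 0.66, adjusted p = 0.0523 by edgeR), and Thrsp passed without saline 2, saline 3 or saline 6 in turn. Adipocyte markers (8 of 10 in the table, 7 with a negative log2 fold change and 1 called as fallen) followed the same order among the highest saline libraries. Their summed CPM was 206, 18.4, 21.7, 457, 157 and 72.7 in saline 1 to 6 and 17.2 to 47.2 in bleomycin. Thrsp was highest in saline 4, 1 and 5, the libraries where those markers were highest, but within bleomycin the order differed, with bleomycin 5 highest for Thrsp and lowest for the markers. Of the defining adipocyte markers, Plin1 was at 0 in bleomycin 1. Their part in the Thrsp result was not tested. Pla2g1b, a secreted phospholipase, and Mlxipl had log2 fold changes of 0.60 and 0.00.

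Saline libraries 1 and 4 were the 2 highest saline libraries for 9 members (Acss2, Me1, Acsl3, Gpam, Pcyt1a, Chpt1, Pemt, Dgat2 and Thrsp), and saline 2 and 3 the 2 lowest for 12, with 7 members in both sets. Summed club cell markers followed the same order. They were at 171849 and 183812 CPM in saline 1 and 4 and 28919 and 32032 in saline 2 and 3. In bleomycin the sum was 21374 to 78012 CPM. Most of the sum was Scgb1a1 (132646 CPM in saline 1 and 146473 in saline 4). Scgb3a1 was lowest in saline 3 and 5 (130 and 528 CPM, with saline 2 at 577), and the other club markers kept the order. Of 8 club markers 1 fell. Summed ciliated cell markers ran the same way. That sum was 2256 and 2604 CPM in saline 1 and 4 and 628 and 552 in saline 2 and 3. The sum of the 10 recruited monocyte and macrophage markers ran the opposite way, at 3584 and 2545 CPM in saline 2 and 3. It was 307 to 749 CPM in the other saline libraries and 207 to 485 in bleomycin, and 2 of the markers fell. The sum does not describe every marker. Ly6c2 was highest in saline 2 and 3 (106 and 82.0 CPM), but Ccr2 was highest in saline 5 (216, against 206 and 186). Without saline 2 and 3, Acsl3 (log2 fold change -0.87, adjusted p = 0.042 by edgeR) and Chpt1 (-0.95, adjusted p = 0.019) passed the threshold, and without saline 1 and 4 they were at 0.23 and -0.12. The part of these cell types in the members' values was not tested. The share of all genes with the library orders above was not computed, so these orders are not shown to be particular to the members. Between the 2 close pairs, counts over all genes differed by a chi-square of 385 to 462 per degree of freedom. The highest value between a saline and a bleomycin library was lower, at 352.

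**Figure D4:**
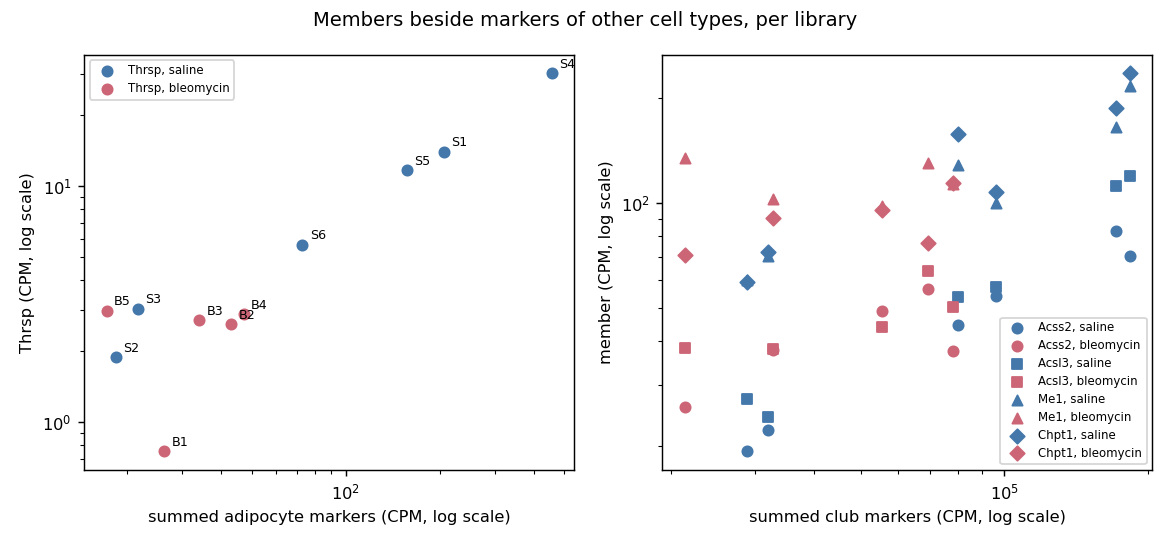
Left, Thrsp against summed adipocyte markers, and right, Acss2, Acsl3, Me1 and Chpt1 against summed club markers, 1 point per library (CPM, both axes on log scale; blue, saline; red, bleomycin). Thrsp runs from 1.89 to 30.1 CPM in saline, and on the right saline 1 and 4 are the highest saline libraries and saline 2 and 3 the lowest on both axes.

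**Figure D5:**
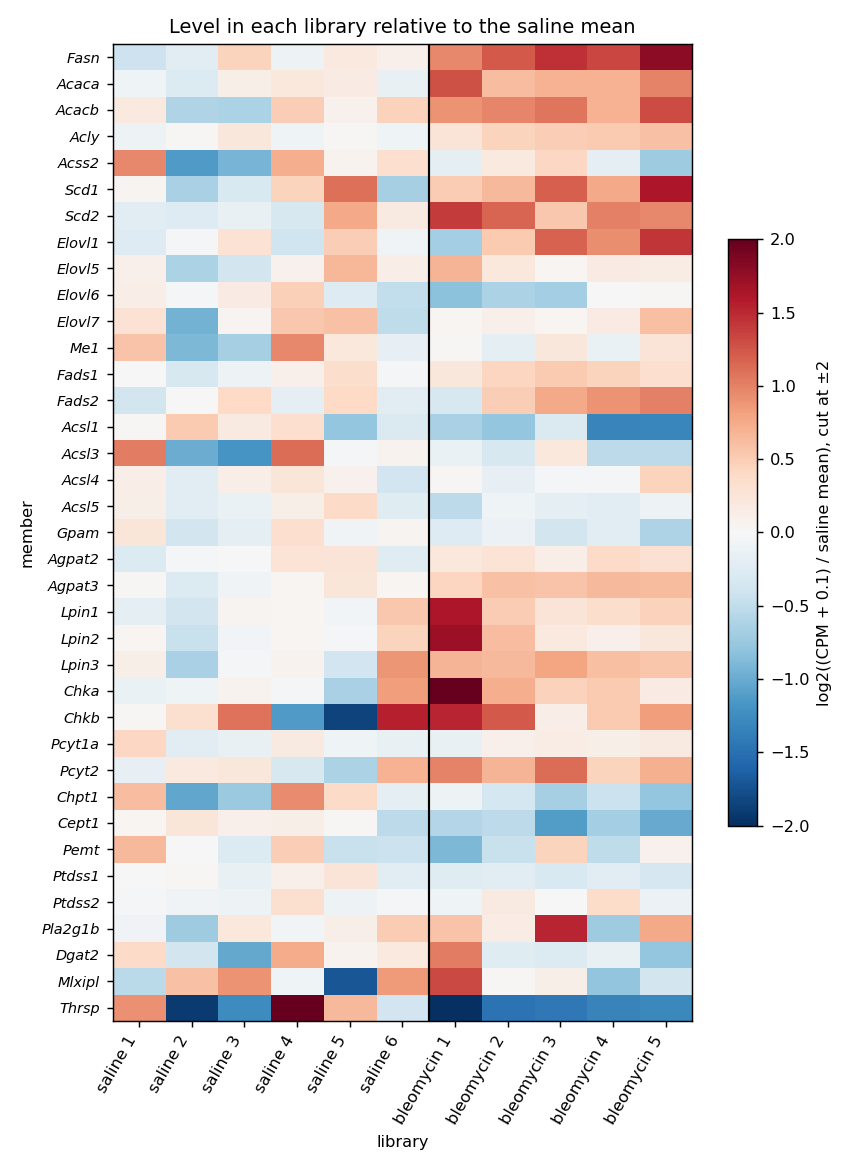
Level of each of the 37 members in each library as log2 of CPM + 0.1 relative to the saline mean (colour scale limited to ±2; columns, 6 saline then 5 bleomycin). Fasn, Acaca, Acacb and Scd2 are red across all 5 bleomycin columns, and Chka, Lpin1 and Lpin2 are darkest in bleomycin 1.

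Other lipid synthesis genes (64 listed, 58 tested) had 6 rises and 2 falls, or 10.3% and 3.45% of those tested, against 4.63% and 5.7% of all genes. Of 13 pathway regulators 3 rose (23.1%). Srebf1, which encodes the SREBP that drives fatty acid synthesis, had 58.0, 65.1 and 84.8 CPM in saline and 186, 93.0, 107, 92.7 and 98.6 in bleomycin 1 to 5. The groups did not overlap. Its log2 fold change was 0.76 (SE 0.20, adjusted p = 0.0352 by edgeR), and the call was lost without any 1 of bleomycin 2 to 5 or of saline 1, 3, 4 and 5. The adjusted p of Srebf1 reached 0.0715 in those edgeR fits and 0.152 over all alternative fits (edgeR, DESeq2 and limma). Srebf2, its relative for cholesterol genes, and Scap, which escorts both, had log2 fold changes of 0.48 (adjusted p = 0.0376) and 0.57 (adjusted p = 0.026) by edgeR, and 0.17 and 0.23 with GC correction, where neither was called. Insig1, which retains the SREBPs in the endoplasmic reticulum, had 0.39 (adjusted p = 0.0752).

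The desaturase-family gene Fads3 rose by a log2 fold change of 0.89 (adjusted p = 0.00734 by edgeR), the choline transporter-like gene Slc44a2 by 0.96 (adjusted p = 0.0187) and the lysophospholipid acyltransferase Lpcat3 by 0.63 (adjusted p = 0.0193). Oxsm, of mitochondrial fatty acid synthesis, fell by 0.94 (adjusted p = 0.0327) and Crls1, the cardiolipin synthase, fell by 0.75 (adjusted p = 0.0237), both by edgeR. Leaving out 1 library in turn ended the calls of Srebf2 and Oxsm in 8 of 11 fits (any bleomycin library, or saline 1, 4 or 5), of Crls1 and Scap in 3 each (bleomycin 2, 3 or 4, and bleomycin 2, 4 or 5) and of Lpcat3 in 2 (bleomycin 4 or 5). Among 20 genes of fatty acid oxidation and lipolysis, edgeR called 0, with 5 at an unadjusted p under 0.05, DESeq2 called 1 up and 1 down, and limma on FPKM called 2 up. Without saline 2 and 3, edgeR called 1 up and 5 down of the 20, where it called 9.22% and 9.97% of all genes. The median log2 fold change of these 20 was -0.05. None of 14 pairs of related members differed in log2 ratio between the groups (lowest adjusted p 0.152 by exact permutation, with 3 pairs under 0.05 unadjusted).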

How the data were processed

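Read counts and FPKM values per gene were deposited by the authors in 1 table for 11 libraries (6 saline, 5 bleomycin). The deposited counts are whole and not normalized, and the deposited FPKM values are scaled by gene length and library, per the file headers. FastQC, HISAT2 2.2.1, HTSeq 2.0.2 and the build GRCm39 are named in the submitters' processing notes. No annotation or counting setting is stated there.

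Polyadenylated RNA was captured, and the second strand was made with dUTP, per the labels' protocols. Counts were tested with edgeR 4.0.16 in R 4.3.3: filterByExpr (count minimum of 10), TMM scaling, and the two-sided quasi-likelihood test of bleomycin against saline with Benjamini-Hochberg adjustment over 14478 genes at 0.05. Standard errors are the absolute log2 fold change over the square root of F. CPM is after TMM scaling. Ratios were tested by exact permutation, pair ratios with 0.5 added to the counts. Alternatives were DESeq2 1.42.0, limma 3.58.1 on log2(FPKM + 1) and log2(FPKM + 0.1), other scalings and filters, a GC correction, a replicate block, a threshold of 0.01 and libraries left out. The edgeR step was tested on simulated data with independent libraries and larger changes than those of the called members. That test therefore does not check the calls made here. Every pair of libraries differed beyond sampling noise (lowest chi-square 17.5 per degree of freedom, saline 1 and 4).

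The members and gene lists, and the choice to leave out saline 1 and 4 or 2 and 3, were made with earlier results of these data known. Named are all members, Srebf1, Insig1 and the 8 called genes of the other lipid lists with the largest change. The biological coefficient of variation between libraries of a group was 36.5%. Promoter windows are RefSeq sequence.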

Additional observations from a re-analysis of the deposited data

Results flagged for a closer look

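Each value below lay far from the rest of its group, by the gap to its nearest neighbour over the range of the group. Of 92 groups of libraries tested, 16 had such a value. Chance marks about 1 in 20 groups where values are independent and normal, which was not tested. The groups come from the same libraries, so the 16 values are not independent and no excess over chance is claimed. All values are CPM after TMM scaling, and none of the causes was tested.

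Of these 16 values, 9 were in bleomycin 1. It was high for Chka (375, next 134), Lpin2 (600.4, next 281), Lpin1 (73.7, next 34.3) and Srebf1 (186, next 107). It was also high for Dgat2 (29.7, next 13.1), Mlxipl (8.9, next 3.79) and Elovl5 (364, next 262). It was low for Pcyt1a (63.8, next 75.5) and Thrsp (0.754, next 2.61).

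Bleomycin 5 was high for Elovl7 (11.1, next 8.18) and Acsl4 (285, next 214). Saline 6 was high for Lpin3 (16.9, next 9.91) and Chka (144, next 84.2) and low for Cept1 (79.4, next 117). Saline 5 was high for Scd2 (602, next 404), and saline 4 for Ptdss2 (29.2, next 23.1).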

How the results depend on the processing

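Fasn was called under all 23 alternatives of the fit. With GC correction 3 members rose (Fasn, Acaca and Scd2) and 0 fell (all genes 2.8% up and 3.88% down), and at a threshold of 0.01 the counts were 2 and 0. For the threshold of 0.01, total-count scaling, limma, the replicate block and most fits without 1 library, the share of all genes is not given here. Counts in those settings show how the calls moved and are not set against all genes. Members that fell numbered 1 with total-count scaling and in each limma fit, 0 without saline 1 and 4, and 4 without saline 2 and 3. Leaving out 1 library at a time, 3 to 8 members rose and 1 to 3 fell. Total-count scaling moved the median of all genes to 0.14 log2 units, and limma on FPKM to between 0.08 and 0.16.

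Of the other lipid synthesis genes, 3 rose and 1 fell without saline 1 and 4, 10 and 4 without saline 2 and 3, and 1 and 0 at the threshold of 0.01. None fell (0) with GC correction, total-count scaling or limma. With 1 library left out 2 to 7 rose and 0 to 3 fell. Of the oxidation genes, 1 rose and 1 fell in DESeq2, 1 and 5 without saline 2 and 3, and 2 rose with total-count scaling and in each limma fit. Without 1 library 0 to 1 rose and none fell.

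The replicate numbers gave no sign of pairing: same-numbered libraries deviated from their group means with correlations from -0.189 to 0.0139. Correlations over all genes cannot exclude a weak pairing. With a replicate block 2 members rose (Fasn and Pcyt2) and 1 fell (Cept1), 1 other lipid gene rose and 1 fell, and the Fasn ratio to type 2 markers was 1.12 with an exact sign-flip p of 0.0625, the smallest it can give. With 1 library left out that ratio was 0.96 to 1.27, and the count of pairs that differed was 0.

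Reversed signs were all among genes and pairs that were not called in the edgeR fit. Without saline 1 and 4 they were Acss2 0.26, Me1 0.39, Acsl3 0.23, Pemt 0.12, Dgat2 0.29, Mlxipl -0.20 and Scd1 minus Scd2 0.19. Without saline 2 and 3 they were Elovl5 -0.0023, Elovl7 -0.077, Pcyt1a -0.028, Acaca minus Acacb 0.14 and Chpt1 minus Cept1 -0.21. With GC correction they were Me1 0.11, Agpat2 -0.093, Ptdss2 -0.016 and Mlxipl -0.20. In limma they were Acss2 0.068 and 0.026, Me1 0.21 and 0.19, and Dgat2 0.087 and 0.066 (the smaller pseudocount first), and with total-count scaling Me1 0.13 and Dgat2 0.12. With a replicate block they were Me1 0.0088 and Acsl4 -0.030. Leaving out 1 library gave Acsl4 -0.064 to 0.10, Dgat2 -0.45 to 0.12, Elovl7 -0.034 to 0.23, Me1 -0.24 to 0.14, Mlxipl -0.47 to 0.18, Ptdss2 -0.011 to 0.14, Acaca minus Acacb -0.27 to 0.015 and Scd1 minus Scd2 -0.25 to 0.14. Where a call or sign changed, the cause was not tested. The reads of low genes such as Chkb limit their precision.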

Other observations

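Some genes of fatty acid use, named after their values were seen, lay near the threshold. Cpt1a, which carries fatty acids into mitochondria and is restrained by malonyl-CoA, was at 155 ± 18.2 CPM in saline (mean ± SD, n = 6) and 119 ± 12.4 in bleomycin (n = 5). Its groups did not overlap, with bleomycin lower, and its log2 fold change was -0.37 (adjusted p = 0.0765 by edgeR's quasi-likelihood test). Pnpla2, the adipose triglyceride lipase, was at 67.6 ± 19.6 CPM in saline and 129 ± 63.0 in bleomycin (log2 fold change 0.93, adjusted p = 0.0639). Mgll, which cleaves monoglycerides, had a log2 fold change of 0.75 with an adjusted p of 0.0952, from 49.7 ± 20.1 CPM in saline to 83.9 ± 16.0 in bleomycin. None of the 3 passed the threshold in that fit. Cpt1a passed in DESeq2 (adjusted p = 0.0165), Pnpla2 in DESeq2 (0.0203) and without saline 2 and 3 (0.0319), and Mgll in each limma fit (lowest 0.0342), with total-count scaling (0.0428) and without saline 5 (0.042).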
